A study of Arabidopsis thaliana with 12 samples.

Results

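FATB (AT1G08510) encodes an acyl-ACP thioesterase, and AT5G19940 encodes a member of the plastid-lipid-associated fibrillin family. These 2 genes were followed in wild-type Arabidopsis thaliana of ecotype Columbia 0, at an age of 4 weeks (6 samples) and of 2 weeks (6 samples). Their probes were taken as those whose single gene in the array's annotation table is FATB or AT5G19940, which gave 1 probe for each gene among 692 probes with a single gene and 3439 probes in all. The genes were chosen by measured values of this same contrast, since both had been seen to be lower at 4 weeks, so their difference between the ages is described without a test. Total RNA was measured on expression arrays, and the labels name no genotype other than wild type, no treatment, no organ, no growth conditions and no number of plants behind a sample. Nothing in the labels says whether the 6 samples of an age come from separate plants, so the spread between them may be technical. In bulk RNA, fewer cells of a type and less RNA per cell cannot be told apart.

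Plant cells make their fatty acids in the plastid, where the growing chain is carried on acyl carrier protein (ACP). Thioesterases end this synthesis by cutting the chain from ACP. FATB acts mainly on saturated chains, which then leave the plastid and feed membrane lipids, sphingolipids and the wax and cutin of the leaf surface, whereas the FATA enzymes act mainly on oleoyl-ACP. Fibrillins, also called plastoglobulins, are lipid-associated proteins of chloroplasts that lie on plastoglobules, the lipid droplets of the plastid, and on thylakoid membranes.

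Both genes gave a positive signal in every sample. In the deposited intensities, which run on a scale from 0 to 100 in each sample, neither gene stood at 0 in any of the 12 samples. A value of 0 was common elsewhere on these arrays, with 421 to 471 probes of a sample at 0 at 4 weeks and 557 to 694 at 2 weeks. Of the 3439 probes, 2332 were at 0 in none of the 12 samples, so the 2 genes share this with 67.8% of the array. A second probe lists FATB together with other genes and cannot be assigned to any of them. It stood at 0 in all 12 samples, as did 124 probes in all, and it is not used here for the level of FATB.

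FATB had deposited intensities of 0.0152, 0.0193, 0.0261, 0.0151, 0.0808 and 0.397 in 4-week samples 1 to 6, and of 0.225, 0.185, 0.153, 0.203, 0.321 and 0.345 in 2-week samples 1 to 6. Samples 1 to 4 at 4 weeks lay far below every 2-week sample, sample 5 lay between them, and sample 6 was the brightest of all 12. The ages therefore overlapped in the deposited values through 1 sample. The median was 0.0227 at 4 weeks and 0.214 at 2 weeks, 9.41 times lower at 4 weeks. Between samples of the same number, FATB was lower at 4 weeks in 5 of 6 pairs, by 14.8 times for number 1 and by 3.98 times for number 5. For number 6 the 4-week value was 1.15 times the 2-week value.

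AT5G19940 had deposited intensities of 0.117, 0.00959, 0.0639, 0.0862, 0.101 and 0.0311 in 4-week samples 1 to 6, and of 0.201, 0.195, 0.229, 0.188, 0.129 and 0.159 in 2-week samples 1 to 6. All of its 4-week values lay below all of its 2-week values, so the ages did not overlap. The share of all probes without overlap is not given here, so nothing is read from the lack of overlap. In the deposited values 11.0% of all tested probes were called lower and 75.7% higher in limma, at a Benjamini-Hochberg adjusted p below 0.05, and nothing is read from that share for a gene chosen on this contrast. Samples 2 and 6 were the lowest at 4 weeks. The median was 0.0750 at 4 weeks and 0.191 at 2 weeks, 2.55 times lower at 4 weeks. It was lower at 4 weeks in 6 of 6 pairs of the same number, by 20.3 times for number 2 and by as little as 1.28 times for number 5.

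**Figure D1:**
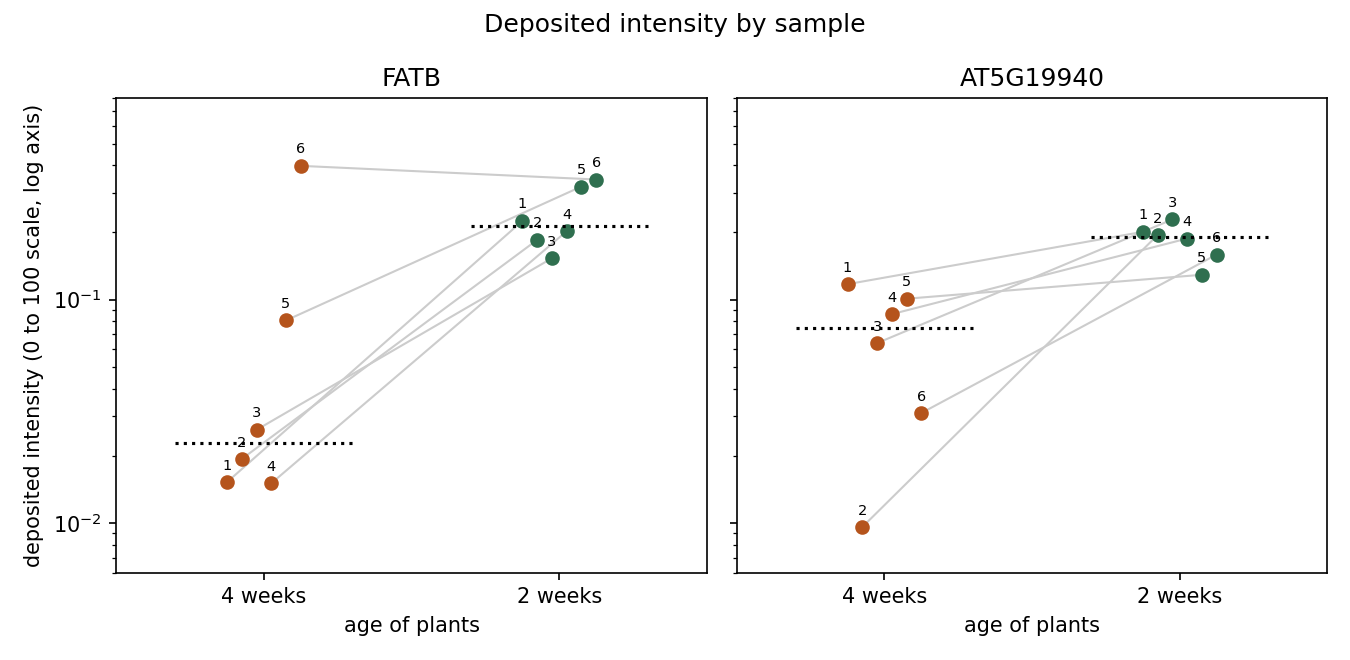
Deposited intensity (0 to 100 scale, log axis) of FATB and AT5G19940 in the 6 samples at 4 weeks and the 6 at 2 weeks. Points carry the sample number, grey lines join the same number at both ages and dotted lines are medians. For FATB, 4-week sample 6, at 0.397, lies above every 2-week sample, whereas the 4-week values of AT5G19940 all lie below its 2-week values.

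The scale of the arrays differed between the ages, which bears on how these values compare. The median intensity of an array was 0.412 ± 0.0240 at 4 weeks and 0.108 ± 0.00931 at 2 weeks (SD, n = 6 each), so a typical probe was brighter at 4 weeks while FATB and AT5G19940 were dimmer. The place of a probe among the probes of its own array does not depend on such a factor. At 4 weeks, between 14.1% and 48.9% of the probes of the array were dimmer than FATB, with a median of 14.8%. At 2 weeks the share was between 57.9% and 78.5%, with a median of 68.6%. FATB thus lay near the bottom of the array in 5 of the 4-week samples and above the middle in all of the 2-week samples. The ages did not overlap on this measure, from which nothing is read without the share over all probes. For AT5G19940, 14.1% to 20.2% of the probes were dimmer at 4 weeks (median 17.8%), and 54.9% to 68.7% at 2 weeks (median 65.3%).

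At 4 weeks both genes came close to the probes at 0. Between 13.4% and 13.7% of the probes stood at 0 in 4-week samples 1 to 4. The number of probes with a positive value dimmer than FATB was 24, 33, 46 and 25 in these samples. In samples 5 and 6 that number was 198 and 1261. For AT5G19940 it ran from 14 in sample 2 to 255 in sample 5. At 2 weeks, between 1391 and 2143 positive probes were dimmer than FATB and between 1315 and 1756 were dimmer than AT5G19940. The low 4-week values were therefore among the dimmest positive values of their arrays.

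**Figure D2:**
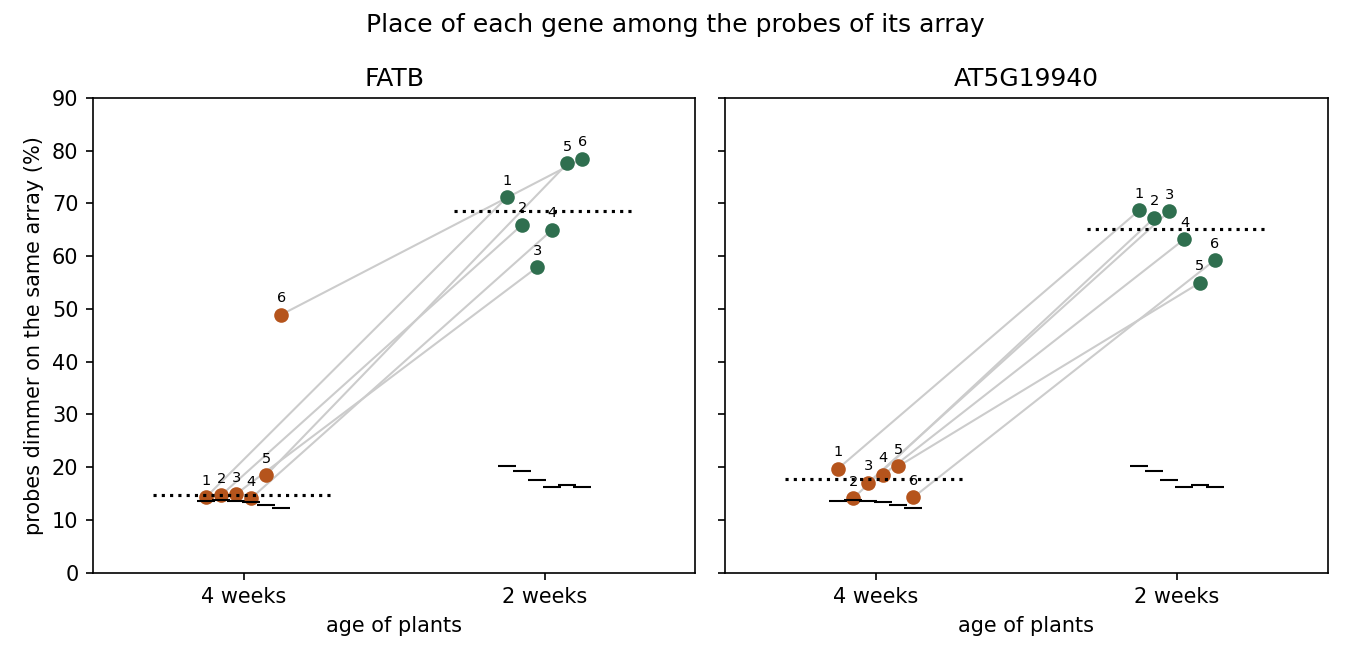
Share of the probes of the same array that were dimmer than FATB or AT5G19940 (%), by sample, at 4 weeks and 2 weeks, with sample numbers, lines joining the same number and dotted medians. Short black marks give the share of probes at 0 in each sample. Except for FATB in 4-week sample 6, at 48.9%, both genes lie just above these marks at 4 weeks and far above them at 2 weeks.

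For comparison across arrays the intensities were quantile normalized, and values under a floor of 0.0152, the 1st percentile of the positive normalized values, were set to the floor before log2 was taken. FATB had a normalized intensity of 0.0575 ± 0.0964 at 4 weeks and of 0.463 ± 0.109 at 2 weeks (SD, n = 6 each). It was at the floor in 4-week samples 1 to 4, with 0.0468 in sample 5 and 0.252 in sample 6. The lowest 2-week value was 0.323, so on this scale the ages did not overlap, and again nothing is read from that. Its log2 difference, 4 weeks minus 2 weeks, was -3.95 (SE 0.64), a 15.5-fold lower level. AT5G19940 had a normalized intensity of 0.0363 ± 0.0229 at 4 weeks and of 0.386 ± 0.0595 at 2 weeks (SD, n = 6 each). It was at the floor in 4-week samples 2 and 6, and its highest 4-week value, 0.0602, lay below its lowest 2-week value, 0.298. Its log2 difference was -3.52 (SE 0.36), or 11.5-fold lower.

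These differences were large for this array. Among 2961 tested probes and genes, 19 had a larger fall than FATB and 36 a larger fall than AT5G19940, while the median log2 difference over all of them was 0.10. Among the 593 named genes tested, 1 fell further than FATB and 3 further than AT5G19940. After normalization limma called 31.1% of the tested probes lower and 33.6% higher. These ranks and shares describe how the 2 genes were picked and support nothing about them. Because 4 samples of FATB and 2 of AT5G19940 lay at the floor, the size of both differences depends on it. Raising it to the 5th percentile, 0.0560, gave a log2 difference of -2.65 for FATB and -2.75 for AT5G19940.

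Both genes were lower at 4 weeks under each of the scalings tried. In the deposited values without normalization the log2 difference was -2.54 (SE 0.73) for FATB and -1.80 (SE 0.53) for AT5G19940, while the median over all tested probes was 1.82. Relative to that median the 2 genes differed by -4.36 and -3.62. With each array centred on the median of its positive values, the log2 difference was -4.24 (SE 0.74) for FATB and -3.42 (SE 0.48) for AT5G19940, against a median of 0.14 over all tested probes. On the log2(value + 0.1) scale, which understates the change of dim genes, the values were -1.97 for FATB and -1.84 for AT5G19940.

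**Figure D3:**
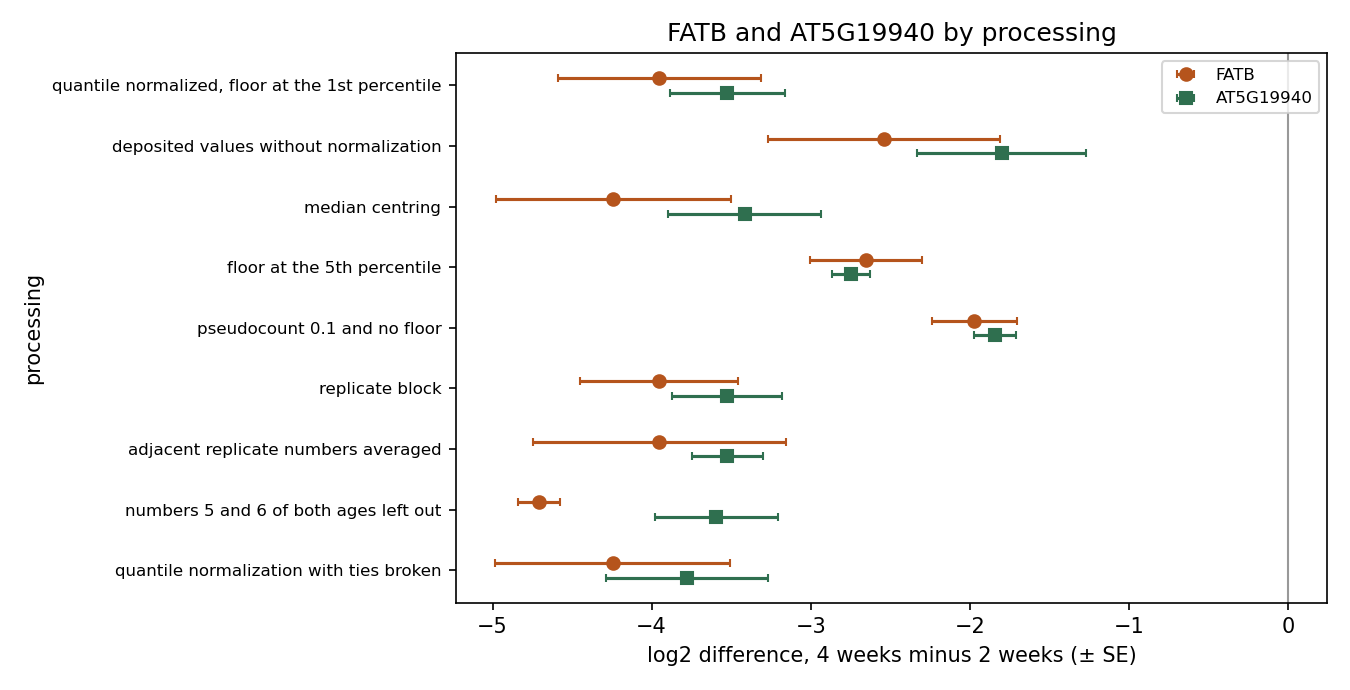
Log2 difference of FATB and AT5G19940, 4 weeks minus 2 weeks, with its SE, under the processing used here (top) and 8 others. Every point lies below 0, from -4.71 to -1.97 for FATB and from -3.78 to -1.80 for AT5G19940.

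The 2 genes did not vary alike among the samples of an age. FATB was highest in samples 5 and 6 at both ages. Its mean log2 normalized level in these samples was -3.20 at 4 weeks and -0.76 at 2 weeks. In samples 1 and 2 it was -6.04 at 4 weeks and -1.19 at 2 weeks, and in samples 3 and 4 it was -6.04 at 4 weeks and -1.48 at 2 weeks. AT5G19940 was lowest at 2 weeks in samples 5 and 6, at a mean of -1.66, with -1.21 in samples 1 and 2 and -1.30 in samples 3 and 4. At 4 weeks its means were -5.09 in samples 1 and 2, -4.61 in samples 3 and 4 and -5.05 in samples 5 and 6. Pearson's r between the 2 genes' deviations from the age means was -0.44 over the 12 samples, which share arrays and do not vary independently. That value rests largely on 4-week sample 6, where FATB stood far above its age mean.

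The spread of FATB within an age was wide for this array, with a residual SD of 1.20 on the log2 scale, above that of 91.1% of the tested probes. For AT5G19940 the SD was 0.67, above that of 74.2%, and the median over all tested probes was 0.38. These ranks were not matched for level. The mean log2 level over the 12 samples was above that of 16.1% of the tested probes for FATB and 15.5% for AT5G19940. FATB's spread lay mainly at 4 weeks, where its log2 levels had an SD of 1.66, with 0.34 at 2 weeks. Without 4-week sample 6 the log2 difference of FATB was -4.57 and its SE was 0.31 in place of 0.64, with 4 of the other 5 samples at the floor. Without samples 5 and 6 of both ages, the other 4 samples of FATB at 4 weeks were all at the floor, and its log2 difference was -4.71, a size that rests on the floor. AT5G19940 moved little in that setting, to -3.59 (SE 0.39).

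Other genes of lipid metabolism were taken from 4 lists with 113 loci in all. The lists covered plastid fatty acid synthesis, plastid glycerolipid synthesis and desaturation, and fibrillins and other plastoglobule proteins. The last list covered wax, cutin, very long chain and endoplasmic reticulum lipid synthesis. Single-gene probes reached 9 of these loci, FATB and AT5G19940 among them, and none of the glycerolipid and wax lists. The other 7 were all tested in limma across the array (two-sided, Benjamini-Hochberg adjusted p below 0.05). Of these 7, 4 were called higher at 4 weeks, 2 were called lower and 1 did not pass, with a median log2 difference of 0.45. Set beside the 33.6% called higher and 31.1% called lower over the whole array, counts this small say little about the lists.

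On the fatty acid synthesis list, 2 genes besides FATB had a probe of their own, and neither fell. AT1G24360, listed for the ketoacyl-ACP reductase step of the chain-building cycle, had normalized intensities between 0.742 and 1.002 at 4 weeks (median 0.861) and between 0.538 and 0.834 at 2 weeks (median 0.700). The ages overlapped. It rose by 0.36 on the log2 scale (SE 0.14, limma adjusted p = 0.0339), a 1.29-fold difference seen in 5 of 6 pairs. Under median centring its difference was -0.12 (limma adjusted p = 0.541), so its direction depends on the scaling. AT5G16230, listed as an acyl-ACP desaturase, which puts the first double bond into a saturated chain, lay between 0.155 and 0.257 at 4 weeks (median 0.179) and between 0.05 and 0.224 at 2 weeks (median 0.152). Its difference of 0.45 (SE 0.32, limma adjusted p = 0.240) did not pass. In the deposited values it was called higher, at 2.86 (limma adjusted p = 1.62e-04), and under median centring it stood at 1.15 (limma adjusted p = 0.0562).

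The fibrillin and plastoglobule list split in both directions. AT2G35490, a listed fibrillin, had normalized intensities between 0.143 and 0.179 at 4 weeks (median 0.159) and between 0.346 and 0.513 at 2 weeks (median 0.392). It fell by 1.34 on the log2 scale (SE 0.12, limma adjusted p = 1.03e-06). AT5G09820, another listed fibrillin, lay between 0.129 and 0.183 at 4 weeks (median 0.150) and between 0.281 and 0.404 at 2 weeks (median 0.330), and fell by 1.13 on the log2 scale (SE 0.13, limma adjusted p = 7.39e-06). Neither gene overlapped between the ages, and both were lower at 4 weeks in 6 of 6 pairs. The share of all tested probes without overlap is not given here, so nothing is read from the lack of overlap in any gene.

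Both of these falls turned into calls the other way in the deposited values, at 0.41 for AT2G35490 (limma adjusted p = 0.0293) and 0.75 for AT5G09820 (limma adjusted p = 0.00104). There the array as a whole moved up, with 75.7% of the tested probes called higher. AT5G19940, by comparison, was lower at 4 weeks in the deposited values as well, as the plot of plastid lipid genes shows. Under median centring, where 33.0% of the probes were called higher and 31.1% lower, AT2G35490 and AT5G09820 were again called lower, at -1.29 and -0.96.

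The other 3 genes of that list rose. AT2G46910, a listed fibrillin, had normalized intensities between 0.167 and 0.315 at 4 weeks (median 0.275). At 2 weeks it was at 0 in 4 of 6 samples and reached 0.0794 in the highest. It rose by 3.44 on the log2 scale (SE 0.41, limma adjusted p = 1.27e-05), or by 2.11 with the higher floor. AT2G46910 thus ran opposite to AT5G19940 within the same family list.

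AT3G27110, listed as a plastoglobule metalloprotease, lay between 0.378 and 0.862 at 4 weeks (median 0.532) and between 0.132 and 0.278 at 2 weeks (median 0.183). It rose by 1.55 (SE 0.24, limma adjusted p = 1.26e-04), in 6 of 6 pairs. AT1G51110, a listed fibrillin, lay between 0.184 and 0.239 at 4 weeks (median 0.219). At 2 weeks it had a median of 0.112 and a highest value of 0.177, and it stood at 0 in sample 6. It rose by 1.33 (SE 0.49, limma adjusted p = 0.0315), and without 2-week sample 6 by 0.83 (limma adjusted p = 0.00339). All 3 rose in the deposited values and under median centring too.

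With adjacent sample numbers averaged, 3 against 3, 25.4% of the tested probes were called higher and 25.5% lower. The falls of AT2G35490 (limma adjusted p = 0.00131) and AT5G09820 (0.00245) were called there, as were the rises of AT2G46910 (5.22e-04) and AT3G27110 (0.00777). The rises of AT1G24360 (limma adjusted p = 0.195) and AT1G51110 (0.0626) were not. Leaving out single samples, the call of AT1G24360 was lost in 5 of 12 cases, without 4-week sample 2, 3 or 4 or 2-week sample 1 or 2. That of AT1G51110 was lost in 4 of 12, without 4-week sample 1, 3 or 6 or 2-week sample 2.

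**Figure D4:**
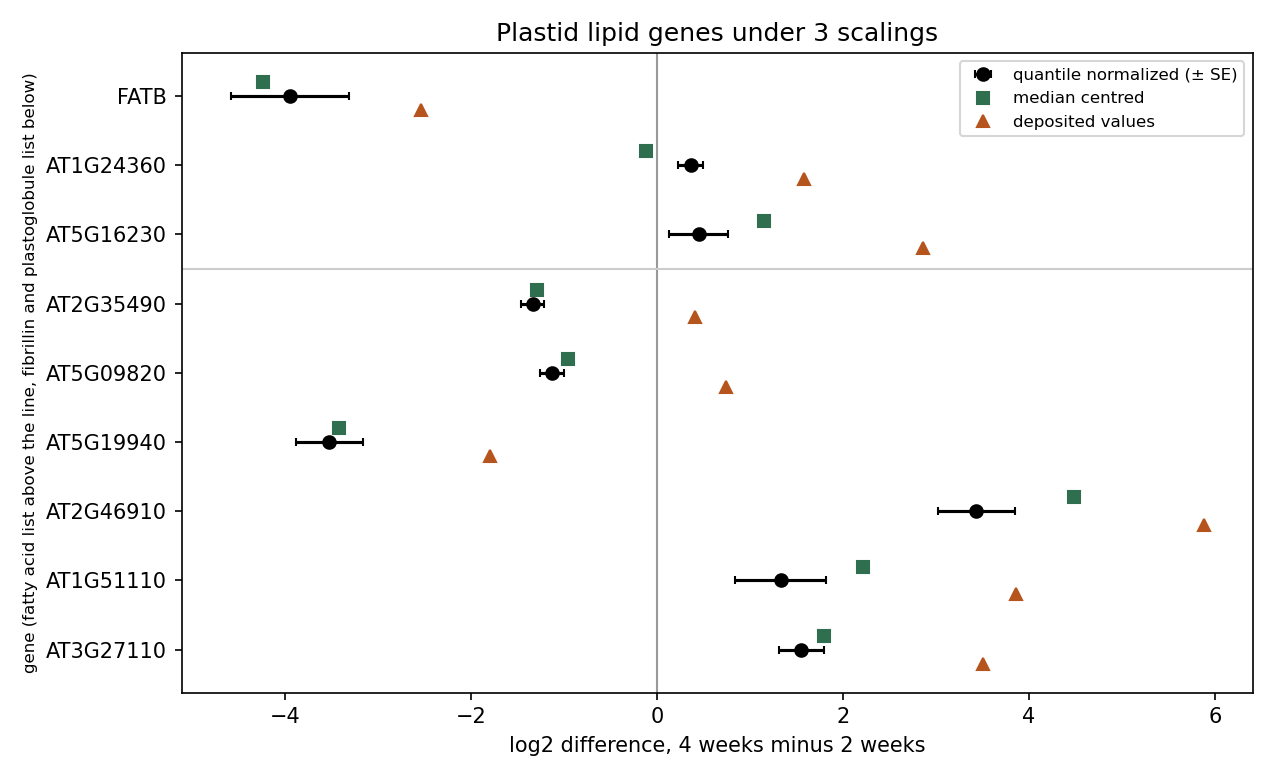
Log2 difference, 4 weeks minus 2 weeks, of FATB, AT5G19940 and the 7 other plastid lipid genes with a probe of their own, after quantile normalization (circles, ± SE), with median centring (squares) and in the deposited values (triangles). FATB and AT5G19940 lie below 0 under all 3 scalings, whereas AT2G35490 and AT5G09820 lie above 0 in the deposited values.

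A further 13 probes list several genes, at least 1 of them on the lipid lists, and stand for no single gene. Their counts are again to be read beside the 33.6% of all tested probes called higher and 31.1% called lower. They are given after quantile normalization only, so how their calls depend on the scaling or on averaging adjacent numbers is not shown. Of 8 from the fatty acid list, 5 were tested, with 2 called higher, 1 lower and 2 not passing. The lower one lists 3 genes, of which 2 are listed acyl-ACP desaturases, and had a normalized intensity of 0.0489 ± 0.0239 at 4 weeks and of 0.469 ± 0.0677 at 2 weeks (SD, n = 6 each), a log2 difference of -3.42 (SE 0.33, limma adjusted p = 1.47e-06). Another of the 8, annotated with the other 2 acyl-ACP thioesterase genes and without FATB, had a normalized intensity of 0.309 ± 0.104 at 4 weeks and of 0.368 ± 0.0738 at 2 weeks (SD, n = 6 each). Its log2 difference was -0.30 (SE 0.24, limma adjusted p = 0.287). The 5 from the fibrillin and plastoglobule list were annotated only with genes of that list. Of these, 4 were tested, with 1 called higher, 1 lower and 2 not passing. The lower one lists 4 genes. It had a normalized intensity of 0.293 ± 0.134 at 4 weeks and of 2.89 ± 1.15 at 2 weeks (SD, n = 6 each). Its log2 difference was -3.34 (SE 0.39, limma adjusted p = 8.72e-06). The higher one lists 2 and had 0.266 ± 0.0282 at 4 weeks and 0.0517 ± 0.0735 at 2 weeks, a difference of 2.88 (SE 0.58, limma adjusted p = 9.17e-04), with 3 of its 2-week samples at 0.

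The named genes whose normalized log2 levels ran most like those of FATB over the 12 samples were AT3G45770, AT1G51080, AT4G25290, AT4G24160 and AT3G04210, with Pearson's r from 0.96 to 0.95. For AT5G19940 they were AT5G11010, AT3G49740, AT1G79080, AT2G44530 and AT5G09820, with r from 0.97 to 0.96. The last of these is the listed fibrillin described above. Of 592 named genes, 24 had r above 0.9 with FATB and 54 with AT5G19940. The difference between the ages enters these values. The log2 differences of these 10 genes ran from -4.15 for AT1G51080 to -1.11 for AT3G45770.

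With the age means taken out, the genes most like FATB were AT1G33250 (r = 0.91), AT3G21810 (r = 0.90) and AT5G55580 (r = 0.89). AT1G33250 was high in samples 5 and 6, as FATB was, with a mean log2 level of -0.96 in these and -1.47 in samples 1 to 4 at 4 weeks, and of 1.46 and 1.26 at 2 weeks. AT3G21810 was also higher in samples 5 and 6 at both ages, but its log2 difference between the ages was 0.14. AT5G55580 was higher in samples 5 and 6 at 4 weeks, with a mean log2 level of 0.71 in these and -0.14 in samples 1 to 4, but not at 2 weeks, with 0.71 and 0.72. For AT5G19940 the closest were AT3G61680 (r = 0.80), AT2G04700 (r = 0.79) and AT3G49740 (r = 0.75). These correlations are descriptions over 12 samples that share their arrays. FATB's largest deviation was in 4-week sample 6, at a log2 level of -1.99 against an age mean of -5.10. Its 4-week samples 1 to 4 were tied at the floor, so its r values rest largely on sample 6.

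The organ makeup of the samples could be checked only in part. Of 7 listed green leaf markers, 3 had a probe of their own (LHB1B2, PRK and PSAN), all above the floor on all 12 arrays and all called lower at 4 weeks, where 31.1% of all tested probes were. Of 21 listed markers of roots, flowers, seeds and leaf senescence, 0 had a probe of their own. Lower marker levels do not give the share of leaf in a sample, since fewer cells and less RNA per cell cannot be told apart. The marker lists were also chosen with earlier results of these data known. The part of organ makeup in the differences of FATB and AT5G19940 was not tested.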

How the data were processed

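The authors deposited 1 linear intensity per probe and sample; their background correction and scaling were not given in the sources used here. All 12 columns of the table were used. Gene names came from the annotation table, of whose 692 single-gene probes 690 matched RefSeq (assembly TAIR10.1), used for names only. No coordinates or sequences are printed. Arrays were quantile normalized, 2 probes sharing a gene were averaged, a floor was set at the 1st percentile of positive values, log2 was taken, and probes above the floor on at least 6 of 12 arrays were kept, leaving 477 out. Changes were tested with limma 3.58.1 (R 4.3.3), two-sided, over all 2961 probes and genes. The fit was tested on simulated data with independent noise in each sample, which leaves out the shared deviations described below. The number of arrays limits the precision. Normalization, floor, pseudocount, filter, pairing, variance model and left-out samples were varied.

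The members and lists were chosen with earlier results of these data known. Named are FATB and AT5G19940, every lipid list gene with a single-gene probe, and for each of the 2 genes the 5 genes most alike in level and the 3 most alike in deviations. Samples sharing a number deviated together across the ages, at r from 0.16 to 0.44, and 12 of 12 matched their own number best. The numbers therefore pair the samples by the rule used here, but no label explains the numbers. Adjacent numbers of an age also deviated together, with r of at least 0.41 at 4 weeks and 0.01 at 2 weeks, so there may be fewer than 6 independent units per age. No 2 samples held identical values.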

Additional observations from a re-analysis of the deposited data

Results flagged for a closer look

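In FATB, AT5G19940 and the 7 other list genes, 22 groups of 6 values were examined for a sample set apart by Dixon's test, and 2 groups had one. Chance alone gives about 1 in 20. FATB had a deposited intensity of 0.397 in 4-week sample 6, with 0.0808 in the next sample. AT1G51110 was at the floor, at -6.04 on the normalized log2 scale, in 2-week sample 6, with -3.72 in the next sample.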

How the results depend on the processing

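FATB and AT5G19940 were lower at 4 weeks in each alternative run for them, and what follows are the values that moved. In the deposited values without normalization their log2 differences were -2.54 and -1.80. In limma 2245 probes were then called higher and 327 lower, and of the 7 lipid list genes 7 were called higher and 0 lower, also at an unadjusted p below 0.05. The cause was not tested, but the median over all probes was then 1.82. With a floor at the 5th percentile the log2 differences were -2.65 and -2.75, and with a pseudocount of 0.1 -1.97 and -1.84. With adjacent numbers averaged, the SEs were 0.79 for FATB and 0.22 for AT5G19940, and 2 list genes were called higher. Leaving out each sample in turn gave between 2 and 4 list genes called higher. Leaving out 4-week sample 3 or 2-week sample 2 gave 2. FATB ran from -4.57 to -3.76 and AT5G19940 from -3.70 to -3.30. With the replicate block, the differences were the same by construction, with SEs of 0.50 and 0.35, 1041 probes were called higher and 987 lower, and no call among the list genes changed. The alternatives without samples 5 and 6 and with ties broken in quantile normalization were chosen after seeing the data. With ties broken, FATB was at -4.25, AT5G19940 at -3.78, and 3 list genes were called higher. At 4 weeks both genes lie near the dimmest positive values, except for FATB in sample 6, with 1261 dimmer positive probes.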
